A study of Homo sapiens with 4 samples.

Results

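The chemokine and chemokine receptor genes are 59 of the 19111 protein-coding genes on chromosomes 1 to 22. They were chosen by name alone, as genes whose GENCODE release 44 symbol starts with CCL, CXCL, XCL, CCR, CXCR or XCR followed by a number. The set holds 27 CC ligands, 14 CXC ligands, 2 XC ligands and 16 receptors, and 1 of the CC ligand records, CCL15-CCL14, is a readthrough of 2 neighbouring genes. By position, 44 of the genes fell into 10 clusters of starts at most 500 kb apart and 15 stood alone, and a gap of 200 kb gave the same numbers.

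The data are HiChIP of the HG00731 lymphoblastoid cell line (LCL), a B cell culture from the 1000 Genomes collection immortalised with Epstein-Barr virus. Cohesin was captured through its SMC1 subunit after dual cross-linking with formaldehyde and EGS (FA-EGS), a second cross-linker that joins proteins to each other. CTCF was captured from the same line after formaldehyde alone (FA), so the target and the cross-linking cannot be told apart. Each target had 2 biological replicates, which the authors pooled before they deposited 1 peak list and 1 loop list per target. All cells came from 1 untreated line, and no value below has a replicate error.

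Chemokines are small secreted proteins that bind G protein-coupled receptors and steer the migration of leukocytes, and their classes are named after the spacing of conserved cysteines. B cells find the lymphoid follicle through CXCR5, the T cell zone through CCR7, the bone marrow through CXCR4, and mucosal sites through CCR6 and CCR10. Cohesin extrudes chromatin into loops and tends to halt at CTCF sites whose motifs point towards each other, and it also gathers at active promoters and enhancers.

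On chromosomes 1 to 22 the lists held 94628 SMC1 and 61417 CTCF peaks. The list labelled SMC1 held 27785 loops with 783375 read pairs, and the list labelled CTCF held 79406 loops with 2635261 read pairs. The loop lists are named here by their labels, since the number of loops in each is the one that the study gives for the other target. All 79406 loops labelled CTCF had an SMC1 peak at an anchor, and 3654 of them (4.6%) had no CTCF peak at either. All 27785 loops labelled SMC1 had a CTCF peak at an anchor, and 11 had no SMC1 peak at either. The caller asks for a peak of its own target at an anchor, so each list met that rule in full with the peaks of the other target and not with those of its label. No statement below takes the target of a loop list from its label. The study states more sequenced reads for SMC1 than for CTCF, and counts are not compared between the targets on an equal depth. As a check of the cell type, an SMC1 summit lay within 1 kb of the start of 6 of 7 B cell markers (among them MS4A1, CD79A, CD79B, PAX5 and EBF1, but not CD22). The same held for 1 of 6 T cell markers, 1 of 5 myeloid markers and 2 of 5 markers of epithelium and fibroblasts. The share over all protein-coding genes was 51.3%. The Wilson interval in percent was 48.7 to 97.4 for the B cell markers and 3.01 to 56.4 for the T cell markers. It was 3.62 to 62.4 for the myeloid markers and 11.8 to 76.9 for those of epithelium and fibroblasts. Each interval held the share over all genes, so with so few markers the check cannot settle the cell type. The marker counts are of occupancy, not of expression.

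Sequences from hg38 are shown first where a CTCF peak near a chemokine gene held the core of the CTCF motif. The core was searched on both strands as CC, then any 3 bases, AG, any 2 bases and GGC. It is printed in capitals, 5′ to 3′ on the strand that carries it. It occurred anywhere in 25 of the 89 CTCF peaks within 20 kb of the starts (28.1%, Wilson 95% interval 19.8 to 38.2). It occurred in 25.5% of all CTCF peaks and in 5.76% of intervals of the same width placed 5 kb away. The first pair lies upstream of the lymphotactin genes XCL1 and XCL2, whose products attract cells through XCR1. The XCL2 site, chr1:168546098-168546157 (plus strand), and the XCL1 site, chr1:168574440-168574499 (minus strand), are shown because all 60 of their 60 bases are identical, in mirrored orientation, 2125 bp and 2130 bp from the starts. The XCL2 core lay 36 bp from the summit of a CTCF peak of −log10 q 9.99. The XCL1 core lay 515 bp from the summit of a peak of 71.8, so a printed site need not be the one under the summit.
XCL2: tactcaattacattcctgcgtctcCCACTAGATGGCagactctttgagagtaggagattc
XCL1: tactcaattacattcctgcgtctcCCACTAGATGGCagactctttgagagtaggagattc

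The second pair sits at opposite ends of a loop in the chromosome 3 receptor cluster. The CXCR6 site, chr3:45938925-45938984 (plus strand), lies 1984 bp upstream of the start of CXCR6, in an intron of FYCO1. The XCR1 site, chr3:46078957-46079016 (minus strand), lies in an intron of XCR1 under a CTCF peak whose −log10 q of 938 was the highest of all peaks near the 59 genes. The cores lay 319 bp (CXCR6) and 112 bp (XCR1) from the summits of their CTCF peaks.
CXCR6: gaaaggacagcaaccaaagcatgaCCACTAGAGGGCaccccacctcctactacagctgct
XCR1: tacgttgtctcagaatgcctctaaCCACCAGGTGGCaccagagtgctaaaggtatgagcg

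The third pair marks the longest loop, that of CXCL12, the ligand of CXCR4. The near site is chr10:44386707-44386766 (minus strand), 249 bp upstream of the start, and the far site is chr10:43671812-43671841 (plus strand).
CXCL12 near: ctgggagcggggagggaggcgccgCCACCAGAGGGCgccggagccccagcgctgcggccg
CXCL12 far: aacaattgtCCAGCAGATGGCagtaaagtg

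The fourth pair belongs to CCR10, with its near site at chr17:42681356-42681385 (minus strand) in an intron of CCR10 and its far site at chr17:42556319-42556348 (plus strand). A last site, chr2:136118529-136118588 (plus strand), lies in the intron of CXCR4, 624 bp downstream of the start.
CCR10 near: ggcatccttCCAGGAGAGGGCgctgcaaag
CCR10 far: aggagtgccCCAGGAGGGGGCggtaccgag
CXCR4: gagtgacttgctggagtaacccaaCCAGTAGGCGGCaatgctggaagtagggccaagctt

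A minority of the genes carried cohesin or CTCF at the start itself. An SMC1 summit lay within 1 kb of the start of 14 of the 59 genes (23.7%, 14.7 to 36.0), against 51.3% of all 19111 protein-coding genes. A CTCF summit lay within 1 kb of 9 (15.3%, 8.24 to 26.5), against 34.7%. Both upper bounds lay below the share over all genes. The intervals are Wilson 95% intervals, which cover counting error only and treat neighbouring genes as independent. Within 20 kb the shares were closer, at 42 genes for SMC1 (71.2%, 58.6 to 81.2, against 84.2%) and 40 genes for CTCF (67.8%, 55.1 to 78.3, against 79.3%). The nearest SMC1 summit of 16 genes (27.1%, 17.4 to 39.6) lay over 1 kb and up to 5 kb away, and the interval held the 19.4% of all genes. The median distance to the nearest SMC1 summit was 4.68 kb, against 0.928 kb over all genes, and for CTCF it was 8.9 kb against 3.35 kb.

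An anchor of the list labelled SMC1 lay within 1 kb of the start of 17 genes (28.8%, 18.8 to 41.4), against 22.4% of all genes. For the list labelled CTCF there were 28 (47.5%, 35.3 to 60.0), against 44.2%. Both intervals held the share over all genes. Of the 59 genes, 16 had a loop in both lists, 12 in the list labelled CTCF alone, 1 (CCL28) in the list labelled SMC1 alone and 30 in neither. A loop was found at 18 genes without an SMC1 summit within 1 kb, while 3 genes had such a summit and no loop. These counts, and the split between the lists, were not made over all genes. The windows also differ, since an anchor spans 5 kb with 1 kb on either side. An SMC1 peak overlapped the anchor at the gene in 35 of the 39 loops labelled SMC1 and 105 of the 114 labelled CTCF. No summit of either target lay within 20 kb of 12 genes (CCL20, CXCL6, CXCL5, CXCL13, CCL26, CCL11, CCL5, CCL18, CCL3, CCL4, CCL3L3 and CCL4L2). These were 20.3% of the genes (12 to 32.3), an interval that held the 13.4% of all genes. The starts of 6 of the 12, from CCL5 to CCL4L2, have sequence that is repeated in hg38 with its alternate contigs.

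**Figure D1:**
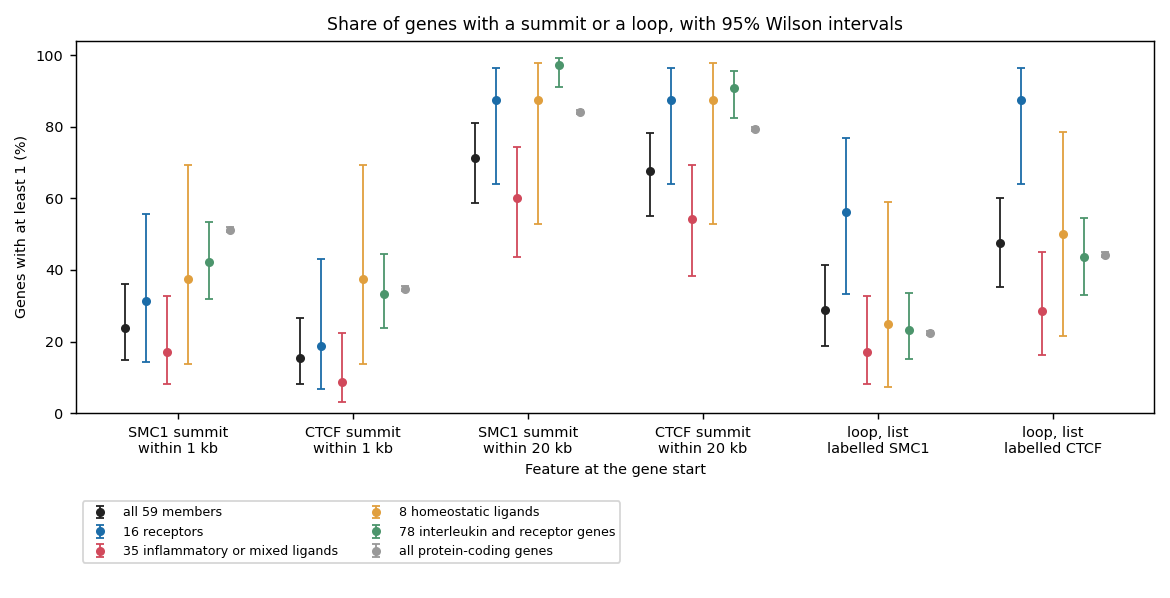
Share of genes in percent (y axis) with a summit within 1 kb or 20 kb of the start or with a loop anchor within 1 kb (x axis), for the 59 chemokine and receptor genes, their receptors and ligand groups, interleukin genes and all protein-coding genes; points are shares and bars are 95% Wilson intervals. Within 1 kb the 59 genes sit at 23.7% for SMC1 and 15.3% for CTCF, below the 51.3% and 34.7% of all genes. In the list labelled CTCF, 87.5% of the receptors have a loop, against 44.2% of all genes.

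Genes of related function served as a second background. Of 78 interleukin and interleukin receptor genes, 33 had an SMC1 summit within 1 kb (42.3%, 32.0 to 53.4), and of 33 genes of the TNF ligand and receptor superfamilies 21 had one (63.6%, 46.6 to 77.8). The interval of the TNF genes lay wholly above that of the chemokine genes, while the interval of the interleukin genes overlapped it. Within 20 kb, 76 of the interleukin genes had an SMC1 summit (97.4%, 91.1 to 99.3).

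**Figure D2:**
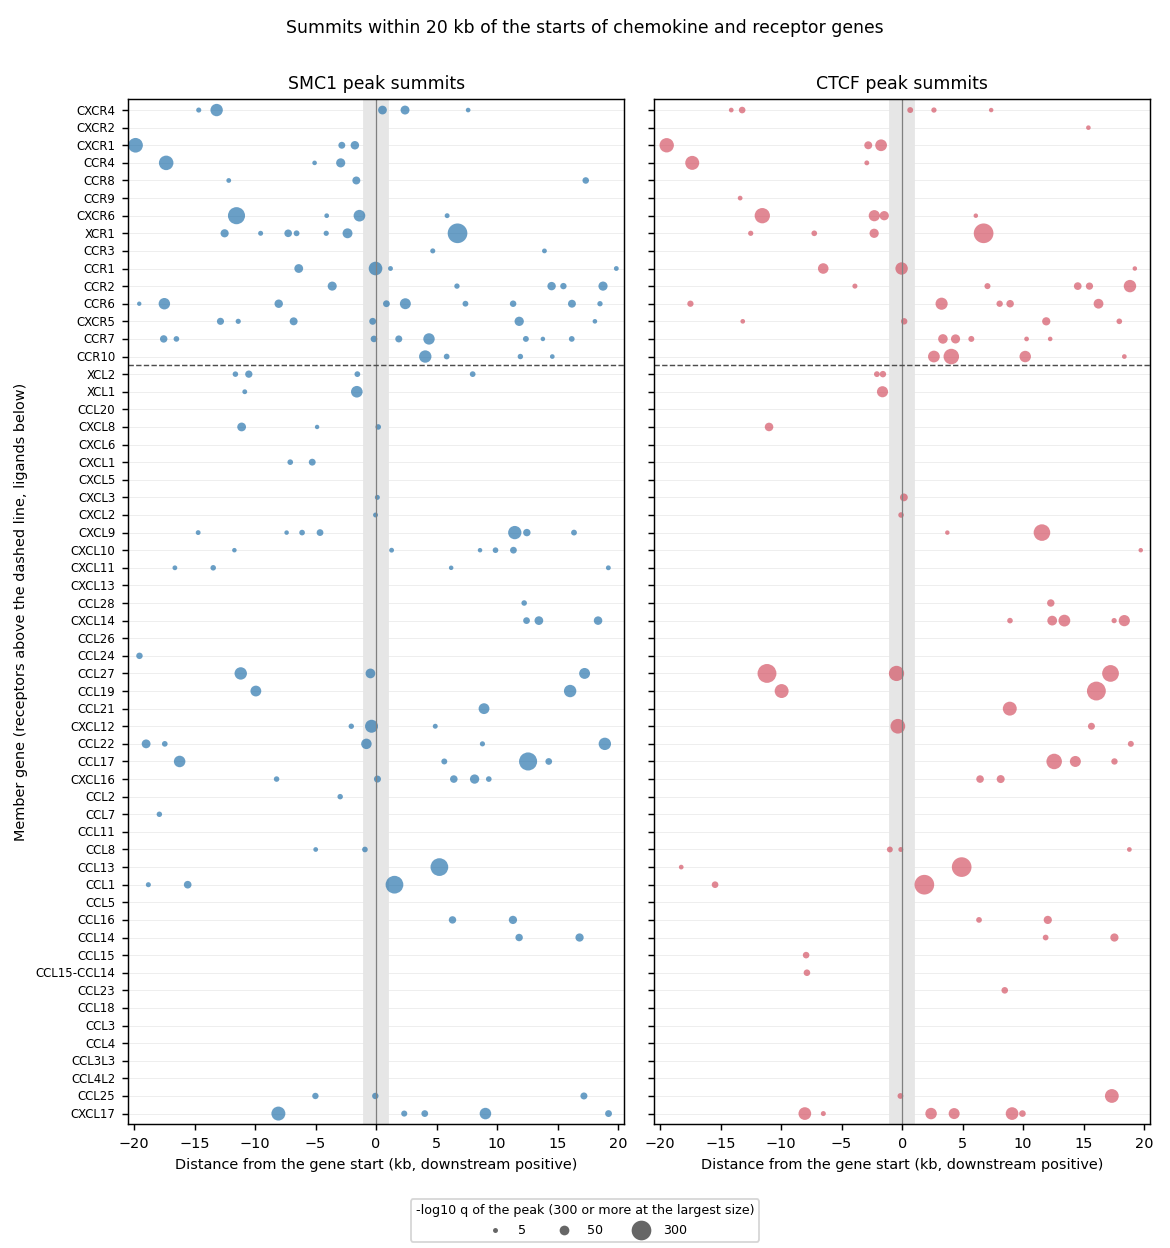
SMC1 (left) and CTCF (right) summits within 20 kb of each start, with the signed distance in kb on the x axis, 1 row per gene shown and dot size by the −log10 q of the peak (capped at the largest size); the grey band marks 1 kb on either side. Most dots of the receptors lie outside the band, and the rows from CCL18 to CCL4L2 are empty in both panels.

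A larger share of receptors than of inflammatory or mixed ligands had a loop. Of the 16 receptors, 14 had a loop in the list labelled CTCF (87.5%, 64.0 to 96.5), the exceptions being CXCR2 and CCR9. Of the 35 inflammatory or mixed ligands, 10 had one (28.6%, 16.3 to 45.1), and their intervals did not overlap. The ligand interval held the 44.2% of all genes, and the receptor interval lay above it. In the list labelled SMC1, 9 receptors (56.2%, 33.2 to 76.9) and 6 of these ligands (17.1%, 8.1 to 32.7) had a loop, again without overlap. Here too the ligand interval held the share over all genes, 22.4%, and the receptor interval lay above it. Of the 35 ligands, 12 have repeated start sequence, where reads may not map to 1 place. Among the other 23, a split chosen after seeing the data, 6 had a loop labelled SMC1 (26.1%, 12.5 to 46.5), and this interval overlapped that of the receptors. For the list labelled CTCF there were 9 of 23 (39.1%, 22.2 to 59.2), still below the receptors' interval. The 8 homeostatic ligands, which are made without inflammation to guide cells through lymphoid and barrier tissue, stood between them, as 4 had a loop labelled CTCF and 2 a loop labelled SMC1. At the start itself the same groups could not be separated, with an SMC1 summit within 1 kb at 5 receptors (31.2%, 14.2 to 55.6), 6 inflammatory or mixed ligands (17.1%, 8.1 to 32.7) and 3 homeostatic ligands (37.5%, 13.7 to 69.4). The intervals treat genes as independent, yet many receptors share the chromosome 3 cluster and its loops, and 11 of the ligand records lie in 1 cluster on chromosome 17. They are therefore too narrow for this contrast, and their overlap or lack of it is no test. A group comparison over genes describes 1 line, and was not tested over samples.

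**Figure D3:**
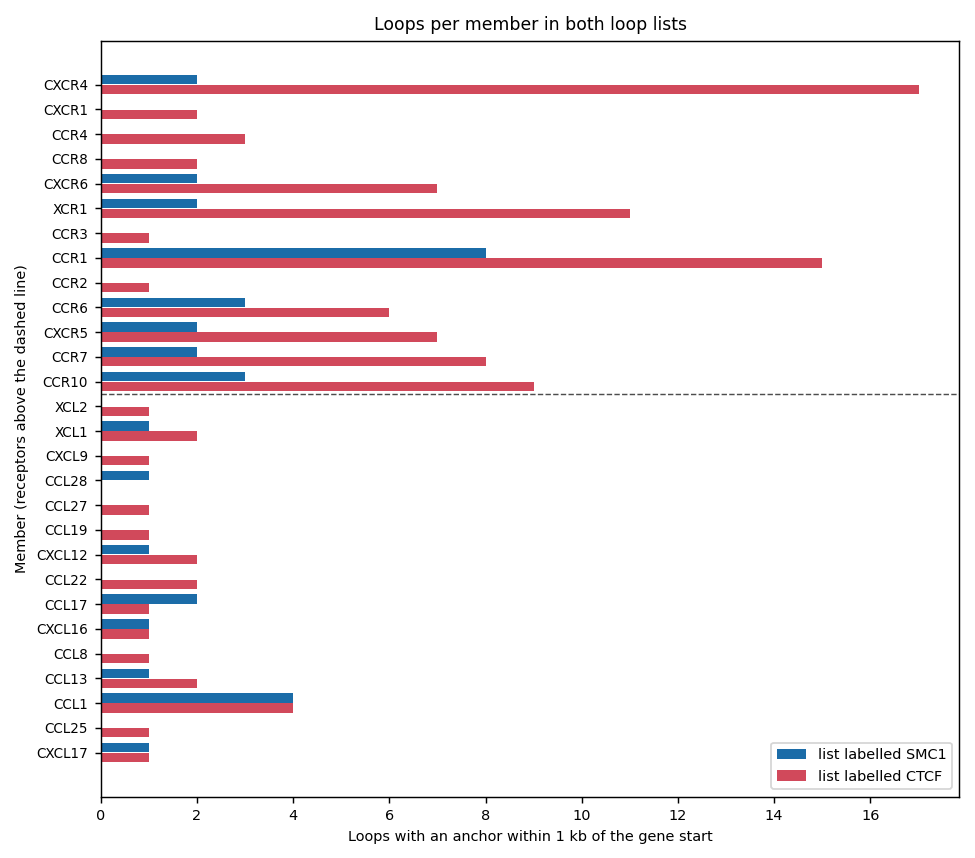
Number of loops (x axis) with an anchor within 1 kb of the start, for the genes shown, which have a loop in either list (y axis), with receptors above the dashed line and ligands below; blue bars are the list labelled SMC1 and red bars the list labelled CTCF. CXCR4 has the longest bar with 17 loops, and no ligand has more than the 4 loops of CCL1 in either list.

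The 5 receptors listed for B cells (CXCR4, CXCR5, CCR6, CCR7 and CCR10) all had loops in both lists and an SMC1 summit within 20 kb. The interval for each of these was 56.6 to 100. It held the 84.2% of all genes for the summit and lay above the 22.4% (SMC1) and 44.2% (CTCF) for loops. An SMC1 summit lay within 1 kb of the start of 4 of them (80.0%, 37.6 to 96.4), an interval that held the 51.3% of all genes. Of the 11 receptors listed for T, NK, myeloid and dendritic cells only CCR1 had one (9.09%, 1.62 to 37.7), an interval below that share. The intervals met at their ends, and with 5 and 11 genes the difference rests on few genes. For CTCF the counts were 2 of 5 and 1 of 11, against 34.7% of all genes.

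CXCR4 (chr2:136114349-136119177, minus strand), the receptor of CXCL12, had 5 SMC1 and 5 CTCF summits within 20 kb. An SMC1 peak 528 bp downstream of the start reached a −log10 q of 37.4 at a fold enrichment of 3.07, and a CTCF peak 666 bp downstream reached 10.5. The highest of its SMC1 peaks, with a −log10 q of 94.7, lay 13180 bp upstream between genes, where the CTCF peak reached 15.9. CXCR4 had the most loops of all 59 genes in the list labelled CTCF, with 17, and had 2 in the list labelled SMC1. The 17 loops spanned 50 to 265 kb with 16 to 64 read pairs each, at 2.01 to 3.75 times the expected number. The loop with the most read pairs (64, against 17.1 expected) led to chr2:136380001-136385000. A loop of 135 kb in the list labelled SMC1, to chr2:135980001-135985000, held 12 read pairs (exact Poisson 95% interval 6.2 to 21.0) against 1.91 expected. Of the 17 partner bins, 8 held no CTCF peak, and 5 of those held an SMC1 peak.

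CXCR5 (chr11:118883892-118897787, plus strand), the receptor of CXCL13, had an SMC1 summit 280 bp upstream (−log10 q 18.3) and a CTCF summit 165 bp downstream (14.5). Stronger peaks lay 11830 bp (SMC1, 44.1) and 11910 bp (CTCF, 31.3) downstream, where CXCR5 and the neighbouring BCL9L both have untranslated sequence. All its 7 loops labelled CTCF and both loops labelled SMC1 led upstream. The one with the most read pairs in the list labelled SMC1 (36, interval 25.2 to 49.8, against 3.83 expected) spanned 195 kb to chr11:118685001-118690000, a bin with a CTCF peak of −log10 q 339. In the list labelled CTCF the top loop spanned 60 kb with 35 read pairs against 14.9, and a loop of 90 kb reached the start of DDX6, an RNA helicase gene, with 21 against 5.38.

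CCR6 (chr6:167111807-167139141, plus strand), the receptor of CCL20, had 9 SMC1 summits within 20 kb, the most of the 59 genes. One of them lay 855 bp downstream of the start (−log10 q 17.4) with no CTCF summit within 1 kb. The nearest CTCF summit was 3259 bp downstream at −log10 q 90.2. Its loops all led upstream, over 15 to 115 kb. A 20 kb loop to chr6:167090001-167095000 held 231 read pairs in the list labelled CTCF, the highest number of any loop of the 59 genes, against 102 expected, and 19 in the list labelled SMC1 against 7.91. At 2.27 and 2.4 times the expected number, these ratios lay below the medians of 3.53 and 4.35 over the loops of all 59 genes in the list labelled CTCF and the list labelled SMC1. The neighbouring 15 kb loop held 173 read pairs in the list labelled CTCF and 19 in the list labelled SMC1. A loop of 110 kb reached the start of CEP43, a centrosomal gene, with 41 read pairs against 15.4. Its partner bin also lies within 1 kb of the start of ENSG00000272980, a protein-coding record. Peaks on both sides of the CCR6 start lie in introns of that record, so the loop cannot be assigned to CEP43 alone.

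CCR7 (chr17:40553769-40565472, minus strand), which binds CCL19 and CCL21, had 8 SMC1 and 5 CTCF summits within 20 kb. The summit nearest to its start was that of an SMC1 peak 176 bp upstream (−log10 q 15.7), and the highest SMC1 peak lay 4375 bp downstream in an intron (76.4). The nearest CTCF summit was 3369 bp downstream (47.9). Of its 8 loops labelled CTCF, 7 led upstream over 30 to 55 kb. The loop to chr17:40615001-40620000 held 115 read pairs against 32.6 expected, and in the list labelled SMC1 it held 35 (24.4 to 48.7) against 13.9. Loops with 112 and 106 read pairs led to bins with SMC1 peaks (−log10 q 95.7 and 20.4) and no CTCF peak. The loop that led downstream reached the start of IGFBP4, a binding protein of insulin-like growth factors, with 35 read pairs against 14.9.

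CCR10 (chr17:42678889-42683917, minus strand), the receptor of CCL27 and CCL28, was the receptor of this group without an SMC1 summit within 1 kb. Its nearest SMC1 summit lay 4065 bp downstream in its coding exon at −log10 q 94.8, and the CTCF summit beside it, at 4061 bp, reached 167. All 9 loops labelled CTCF and all 3 labelled SMC1 led downstream over 60 to 125 kb. The top loop reached the start of PSMC3IP, a gene of meiotic recombination, with 58 read pairs against 11.3 expected in the list labelled CTCF and 33 (22.7 to 46.3) against 11.6 in the list labelled SMC1. The anchor bin also holds the start of CNTNAP1, so these loops cannot be assigned to CCR10 alone. The near and far sites printed above lay at the ends of a 125 kb loop with 13 read pairs in the list labelled CTCF and 19 in the list labelled SMC1.

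**Figure D4:**
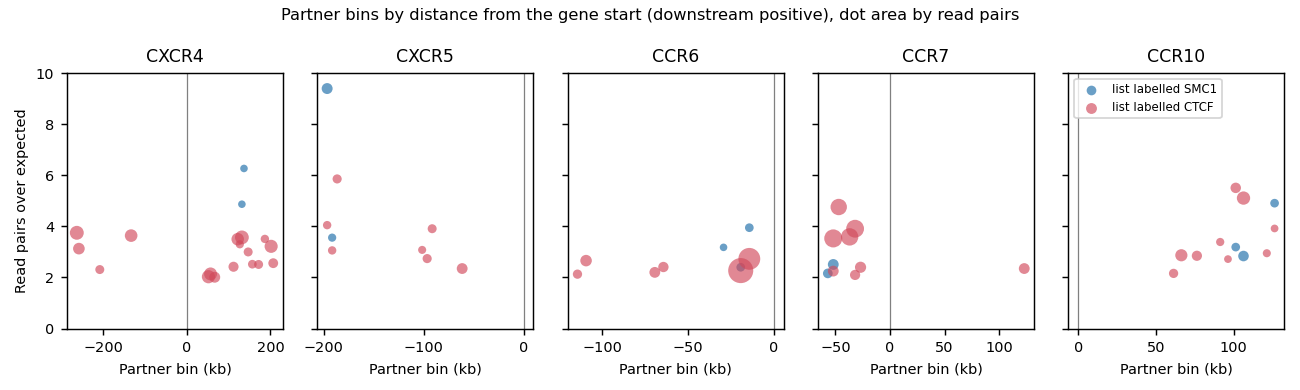
Loop partners of the 5 receptors listed for B cells, with the distance of the partner bin from the gene start in kb (x axis, downstream positive), the read pairs over the expected number (y axis) and a dot area that grows with the read pairs; blue is the list labelled SMC1 and red the list labelled CTCF. Partners of CXCR5 and CCR6 lie upstream, those of CCR10 downstream, and those of CXCR4 on both sides.

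The receptor cluster on chromosome 3 includes CCR9, CXCR6, XCR1, CCR3, CCR1 and CCR2, and these receptors are known from T cells, NK cells, monocytes, eosinophils and dendritic cells. Every loop that joined 2 of the 59 genes lay in it. These were 4 of the 39 loops labelled SMC1 and 11 of the 114 labelled CTCF. In place of the starts, the strongest peaks lay between them or in introns. The highest was the XCR1 intron site printed above, 6732 bp downstream of the start, with a −log10 q of 938 and a fold enrichment of 20.8 for CTCF, and of 303 and 8.85 for SMC1.

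CCR1 (chr3:46201711-46208313, minus strand), a receptor of CCL3 and CCL5, was the member of the cluster with both summits at the start, an SMC1 summit 46 bp upstream (−log10 q 121) and a CTCF summit 47 bp upstream (95.3). It lies within an intron of CCR3. It had 8 loops labelled SMC1, the most of the 59 genes, and 15 labelled CTCF. The loop between XCR1 and CCR1 spanned 120 kb and held 132 read pairs against 13.3 in the list labelled CTCF and 39 (27.7 to 53.3) against 5.37 in the list labelled SMC1. The bin of the XCR1 intron peak joined CCR1 over 130 kb with 94 read pairs in the list labelled CTCF and 59 in the list labelled SMC1.

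CXCR6 (chr3:45940933-45948351, plus strand), the receptor of CXCL16, had summits 1376 bp (SMC1, −log10 q 81.3) and 1482 bp (CTCF, 44) upstream. The bin of its start joined the bin of the XCR1 intron peak over 135 kb with 91 read pairs (73.3 to 112) against 7.31 in the list labelled SMC1, the highest ratio of that list's loops at these genes, 12.4. In the list labelled CTCF the same bins held 80 read pairs against 10.5. The neighbouring bin, which holds the printed CXCR6 site, held 138 against 16.4 in the list labelled CTCF and 55 against 12.4 in the list labelled SMC1. XCR1, the receptor of XCL1 and XCL2, had 2 loops labelled SMC1 and 11 labelled CTCF. CCR3, an eosinophil receptor, had 1 loop, to CCR1, with 18 read pairs against 5.71. CCR2, a monocyte receptor, had an SMC1 summit 3627 bp upstream (−log10 q 41.2) and 1 loop labelled CTCF with 31 read pairs against 10.6, and none labelled SMC1. CCR9, the receptor of CCL25, had none and a single CTCF summit 13394 bp upstream (−log10 q 3.89).

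**Figure D5:**
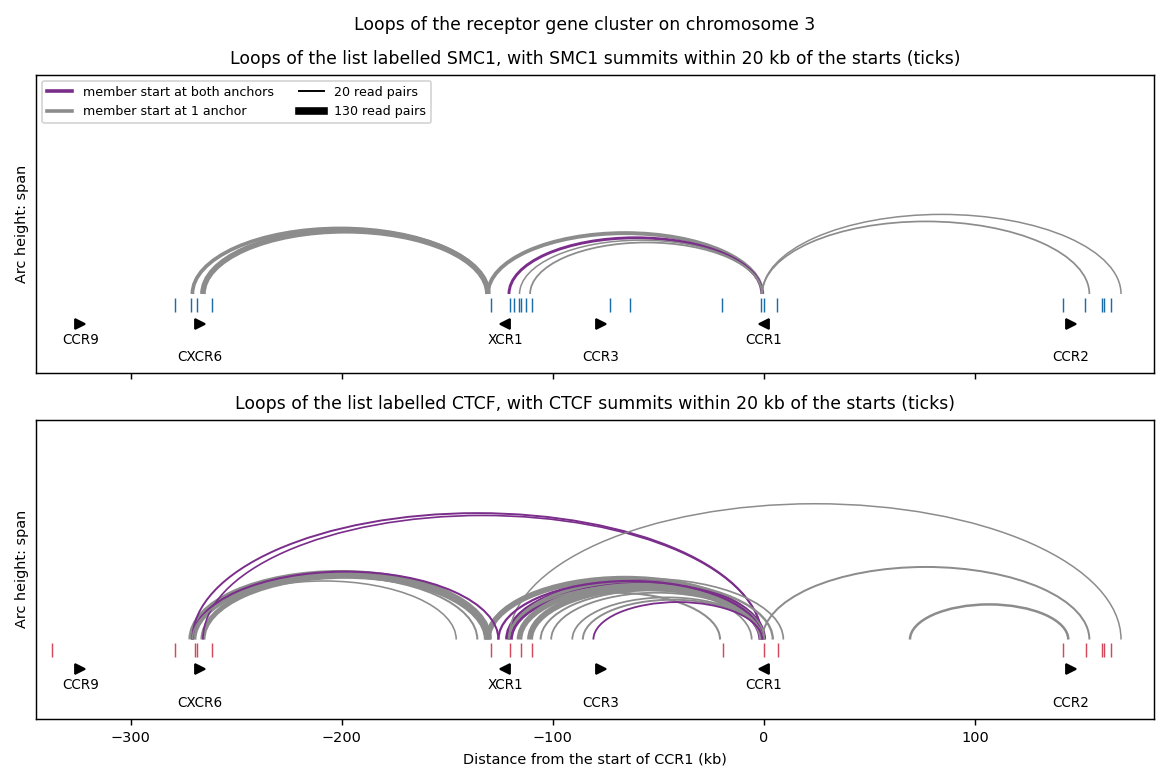
Loops with an anchor at a labelled receptor gene of the chromosome 3 cluster, some loops not drawn, by distance in kb from the start of CCR1 (x axis), in the list labelled SMC1 (top) and the list labelled CTCF (bottom); arc width grows with the read pairs, arc height with the span, purple arcs have a receptor start at both anchors, ticks are summits and arrowheads are gene starts with their strand. Arcs chain CXCR6, the XCR1 bin and CCR1, with the XCR1 to CCR1 loop at 39 and 132 read pairs, and none ends at CCR9.

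The partner bins of the B cell receptors and of the other receptors could not be separated by their CTCF peaks. Of the 47 loop ends of the B cell receptors in the list labelled CTCF, 17 led to a bin with no CTCF peak (36.2%, 24 to 50.5). For the other receptors it was 13 of 57 (22.8%, 13.8 to 35.2). The intervals overlap, and both held the 32.3% of the loop ends of all protein-coding genes. In the list labelled SMC1 the counts were 4 of 12 (33.3%, 13.8 to 60.9) and 0 of 19, for which the interval reached 16.8%, against 25.7% for all genes. These intervals overlap too. Neighbouring bins can count the same contact more than once, and the loop caller takes peaks as input, so peaks at anchors are partly set by its construction.

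The remaining receptors stood apart from the cluster. CCR4 and CCR8, known from helper and regulatory T cells, had SMC1 summits 2926 bp (−log10 q 42) and 1633 bp (28.5) upstream. CCR4 had 3 loops labelled CTCF, with up to 46 read pairs against 6.88, and CCR8 had 2, with up to 41 against 12.4. CXCR1, a neutrophil receptor of CXCL8, had a CTCF summit 1742 bp upstream (−log10 q 82.5) and 2 loops labelled CTCF, of which the larger reached the bile acid receptor gene GPBAR1 with 23 read pairs against 6.93. Its neighbour CXCR2 had no SMC1 summit within 20 kb and no loop.

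Among the homeostatic ligands CXCL12 (chr10:44370165-44386493, minus strand), a stromal ligand that retains cells in bone marrow, had strong peaks at its start. The SMC1 summit lay 376 bp upstream with a −log10 q of 107 and a fold enrichment of 8.02. The CTCF summit lay 357 bp upstream at 146 and 13. Its loop over 715 kb was the longest of the 59 genes in both lists, with 25 read pairs against 1.86 in the list labelled CTCF, and 13 (6.92 to 22.2) against 1.69 in the list labelled SMC1. Both anchors carried the printed motif sites, facing each other. A second loop labelled CTCF spanned 475 kb to the other side with 15 read pairs against 2.25.

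CCL27, CCL19 and CCL21 form a cluster of 46.1 kb on chromosome 9. CCL27 (chr9:34661880-34664048, minus strand), a skin chemokine, had the strongest CTCF peak within 1 kb of any of the 59 starts, with a −log10 q of 160, and an SMC1 peak of 50.4, both with summits 467 bp upstream in untranslated sequence of a neighbouring gene. CCL19 and CCL21, the ligands of CCR7, had no summit within 1 kb. Their nearest SMC1 and CTCF summits lay between the genes, 9938 bp and 9964 bp upstream of CCL19 and 8922 bp and 8896 bp downstream of CCL21, and were the same peaks (−log10 q 66.8 and 128). CCL27 and CCL19 each had 1 loop labelled CTCF, with 24 and 17 read pairs, and CCL21 had none. CCL25, a gut and thymus chemokine, had weak peaks at its start (SMC1 14.3, CTCF 9.67) and 1 loop labelled CTCF over 200 kb with 14 read pairs against 2.51. CCL28 and CXCL14 had their nearest SMC1 summits 12241 bp and 12437 bp downstream, and CCL28 had a loop over 305 kb with 13 read pairs labelled SMC1. CXCL13, the ligand of CXCR5, had no summit of either target within 20 kb and no loop.

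CCL22 and CCL17, ligands of CCR4 that lie 46 kb apart on chromosome 16, differed at their starts. CCL22 (chr16:57358783-57366189, plus strand) had an SMC1 peak 800 bp upstream with a −log10 q of 61.3 and no CTCF peak over it, and its nearest CTCF summit lay 18903 bp away. CCL17 (chr16:57404767-57416063, plus strand) had its strong peaks past the end of the gene, 12565 bp downstream of the start, at −log10 q 244 for SMC1 and 167 for CTCF. Loops of both genes led to the same bin, chr16:57300001-57305000, which held a CTCF peak of 197. In the list labelled CTCF the loop from CCL22 held 71 read pairs against 26.3 and that from CCL17 held 31 against 6.6. In the list labelled SMC1 CCL17 held 20 against 4.5 and CCL22 had no loop. CXCL16 (chr17:4733533-4739928, minus strand), the ligand of CXCR6, had an SMC1 summit 113 bp downstream of its start (−log10 q 19.2) and no CTCF summit within 1 kb. Its loop labelled CTCF joined it to ARRB2, a beta-arrestin gene, over 25 kb with 32 read pairs against 15.4, and its loop labelled SMC1 reached C17orf107 over 160 kb with 14 against 3.4. The anchor of both also lies within 1 kb of ZMYND15.

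The CXCL9, CXCL10 and CXCL11 genes, which encode interferon-induced ligands of CXCR3, had 10 SMC1 and 2 CTCF peaks within 20 kb of their starts and none within 1 kb. SMC1 summits were 4634 bp, 1281 bp and 6205 bp from the 3 starts, with −log10 q of 17.1, 4.5 and 2.94. The strongest peaks, 11465 bp (SMC1) and 11554 bp (CTCF) downstream of CXCL9, reached 114 and 197. The cluster had a single loop, from CXCL9 over 60 kb, with 20 read pairs against 5.61 in the list labelled CTCF. CCL20, the ligand of CCR6, had no summit within 20 kb of its start, the nearest SMC1 summit lying 22.1 kb away, and no loop.

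The CXCL8 cluster on chromosome 4, which encodes neutrophil ligands, had peaks at starts and no loops. CXCL8, CXCL3 and CXCL2 had SMC1 summits 177 bp, 105 bp and 46 bp from the start at −log10 q of 8.35, 5.18 and 4.7, the lowest among the 14 genes with such a summit. These 3 were the only genes with an SMC1 summit within 1 kb and a loop in neither list. CXCL3 and CXCL2 also had CTCF summits at 142 bp and 93 bp (26.7 and 8.18). CXCL1 had its nearest SMC1 summit 5278 bp upstream, and CXCL6 and CXCL5 had no summit within 20 kb. CXCL17, on chromosome 19, had SMC1 and CTCF summits 2327 bp and 2390 bp downstream in an intron. Its loop of 90 kb held 16 read pairs in one list (SMC1) and 12 in the other (CTCF). The eotaxin genes CCL24 and CCL26 on chromosome 7 had no loop, and their single peak was an SMC1 peak 19560 bp upstream of CCL24 (−log10 q 14.7).

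The first CCL cluster on chromosome 17 (CCL2, CCL7, CCL11, CCL8, CCL13 and CCL1, over 108 kb) encodes monocyte and eosinophil attractants and had its loops at one end. CCL1 had an SMC1 peak in an intron 1520 bp downstream of its start at −log10 q 233 and a CTCF peak 1834 bp downstream at 313. It had 4 loops in each list, all to lower coordinates. The loop to chr17:34200001-34205000 held 129 read pairs against 9.33 in the list labelled CTCF and 49 (36.3 to 64.8) against 10.1 in the list labelled SMC1. CCL13, whose start lies in the bin next to that of CCL1, joined the same bin with 51 read pairs against 3.47, the highest ratio of all loops of the 59 genes, 14.7. The CCL13 anchor itself held no SMC1 or CTCF peak, and whether its loop is separate from that of CCL1 was not tested. CCL8 had weak peaks at its start (SMC1 9.03, CTCF 4.94) and joined chr17:34200001-34205000 with 15 read pairs against 3.83. CCL2 and CCL7 shared an SMC1 peak of 7.79 and had no loop, and CCL11 had no summit within 20 kb and no loop.

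The second CCL cluster on chromosome 17 holds 11 records over 330 kb (CCL5, CCL16, CCL14, CCL15, CCL15-CCL14, CCL23, CCL18, CCL3, CCL4, CCL3L3 and CCL4L2). None of them had a summit of either target within 1 kb or a loop in either list. CCL5, CCL18, CCL3, CCL4, CCL3L3 and CCL4L2 also had none within 20 kb, and their nearest SMC1 summit lay 89.1 kb to 236 kb away. CCL3, CCL4 and CCL5 encode chemokines that activated lymphocytes release. Here 85.7% to 100% of the 50-base stretches sampled within 1 kb of each start occurred again in the hg38 sequence with its alternate contigs, which carry other versions of this region, and 0 to 28.6% occurred again on the primary chromosomes alone. The peak lists hold peaks on such contigs, and the authors kept reads with a mapping quality over 30. Start sequence of 10 members of the set was matched at 15 positions on the alternate contigs, and 0 of these had an SMC1 or CTCF summit within 1 kb. The positions matched for CCL4 and CCL4L2 lie within 1 kb of each other, so not all of them are separate copies. Over all protein-coding genes, 5.37% of the 1230 with a start sequence found more than once had an SMC1 summit within 1 kb, against 54.4% of the 17881 others. The part of the repeated sequence in the absence of peaks was not tested. Without the 12 members with such starts (these 11 and XCL2), the shares with a summit within 1 kb were 14 of 47 genes for SMC1 (29.8%, 18.7 to 44) against 54.4%, and 9 of 47 for CTCF (19.1%, 10.4 to 32.5) against 36.9%. With a loop labelled SMC1 there were 17 of 47 (36.2%, 24 to 50.5) against 23.9%, a share just below the lower bound. With a loop labelled CTCF there were 27 of 47 (57.4%, 43.3 to 70.5), an interval that held the 47.1% of the others. This split was chosen after seeing the data.

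XCL1 and XCL2 (chr1:168576605-168582069, plus strand, and chr1:168540768-168543997, minus strand) are near-identical copies that point away from each other. At XCL1 the SMC1 and CTCF summits 1592 bp and 1626 bp upstream reached −log10 q of 80.5 and 71.8. At XCL2 those 1548 bp and 1592 bp upstream reached 9.69 and 14.8. Within 1 kb of the starts 42.9% and 52.4% of the 50-base stretches occurred more than once, so reads from either copy could be lost or misplaced, and the difference in height is uncertain. XCL1 had 1 loop labelled SMC1 (19 read pairs against 2.17) and 2 labelled CTCF (42 and 48 read pairs against 3.9 and 4.53) and XCL2 had 1 (12 against 1.96), all to the neighbouring bins chr1:168435001-168440000 and chr1:168440001-168445000.

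Of the 130 SMC1 peaks within 20 kb of the 59 starts, 65 overlapped a CTCF peak (50%, 41.5 to 58.5). Within 20 kb of any protein-coding start it was 18749 of 36284 (51.7%). The share was 20 of 33 around the receptors listed for T, NK, myeloid and dendritic cells, 14 of 32 around those listed for B cells, 11 of 14 around homeostatic ligands and 20 of 51 around inflammatory or mixed ligands. Of the 89 CTCF peaks, 70 overlapped an SMC1 peak (78.7%, 69.0 to 85.9), close to the 78.6% within 20 kb of any protein-coding start. The heights were close to those around all genes, with a median −log10 q of 17.1 against 17.3 for SMC1 and 24.6 against 21.1 for CTCF.

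The 39 loops labelled SMC1 had a median of 19 read pairs, a median span of 140 kb and a median ratio to the expected number of 4.35, against 23 read pairs, 115 kb and 3.69 for the 10172 loops of that list with any protein-coding start at an anchor. The 114 loops labelled CTCF had 28 read pairs, 115 kb and 3.53, against 25, 105 kb and 3.64 for 24825 loops. The same pair of bins was found in both lists for 31 loops, 79.5% of those labelled SMC1 and 27.2% of those labelled CTCF. The motif was searched anywhere in the CTCF peaks with a summit inside the anchor. Both anchors then carried it in 1 orientation at 3 loops labelled SMC1 (CXCR6, CXCL12 and CCR10) and 4 labelled CTCF (the same and CXCR4). The counted sites pointed towards each other at all of them, against 60.7% of 2187 and 61.9% of 4442 such loops over the lists. The near anchor of CCR10 also holds a core on the plus strand, chr17:42680773-42680784. It was not counted, since the summit of its CTCF peak (−log10 q 167) lies outside the anchor, so the CCR10 loop is not clearly convergent. With 3 and 4 loops the lower bounds were 43.9% and 51%, so no difference from all loops could be seen.

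Genes that act with these receptors were counted as well. Of 10 chemokines and receptors outside the naming rule, 3 (ACKR3, ACKR2 and CCRL2) had an SMC1 summit within 1 kb, and 5 had a loop labelled CTCF. Of 22 genes of signal transduction below the receptors, such as the G protein subunit GNAI2, the kinase GRK2 and the exchange factors DOCK2 and VAV1, 15 had an SMC1 summit within 1 kb (68.2%, 47.3 to 83.6) and 12 a loop labelled SMC1 (54.5%, 34.7 to 73.1, against 22.4% of all genes). The interval for summits held the 51.3% of all genes and lay above that of the 59 chemokine genes.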

How the data were processed

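HiChIP libraries of SMC1 and CTCF from the HG00731 LCL, with 2 biological replicates per target, were available as pooled lists. Reads were aligned to hg38 with alternate contigs, and the authors kept a mapping quality over 30, removed duplicates and merged the replicates. The authors called peaks with MACS3 3.0.1 (no input, fragments set to 200 bp, q of 0.01), and the deposited peak lists give fold enrichment as a ratio and the −log10 q of each peak. The authors called loops with MAPS in 5 kb bins with the peaks as input, and the deposited loop lists give the count of read pairs per bin pair. The deposited loop lists also give an expected number from the authors' model, used here as a score. Neighbouring bin pairs count as separate loops. Shallower libraries give fewer peaks and loops, and the study states more reads for SMC1 than for CTCF. The lists themselves carry no depth.

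Genes, starts and strands were taken from GENCODE release 44. A summit was assigned to a start within 1 kb or 20 kb, and a loop to a start with an anchor within 1 kb. Shares carry Wilson 95% intervals and read pairs exact Poisson 95% intervals. Both cover counting error only, and no test was run, since each target has 1 list. Repeated sequence was measured with 50-base stretches, and a start counted as repeated when over 50% of them occurred more than once. Full values are given for a list of lymphoid chemokines and receptors, for the 5 genes with the highest −log10 q within 1 kb per target, for the 5 with the most loops per list and for the top loop of each cluster. Other values in the text were added to account for each gene. The members and lists were chosen with earlier results of these data known. The scripts were tested on simulated data, and used pysam 0.24.0, pandas 2.3.3, SciPy 1.17.1 and NumPy 2.4.6 under Python 3.11.15. Other windows, q limits, starts and loop filters were tried, as was an exchange of the loop lists. The loop numbers that the study gives and the peaks at the anchors of all loops both place each list with the target opposite to its label. Some items, with the figure rows and loops that need them, are not reported here and remain in the counts over groups of genes.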

Additional observations from a re-analysis of the deposited data

How the results depend on the processing

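Of 47 alternatives, 36 moved a share by no more than its 95% interval and 11 moved it further. For genes with an SMC1 summit within 20 kb (71.2%) the share was 57.6% with peaks of −log10 q of at least 10, 89.8% in a window of 50 kb and, chosen after seeing the data, 83.0% over genes with a start sequence found once. For CTCF within 20 kb (67.8%) it was 54.2% at 10 kb and 86.4% at 50 kb. The share with a loop labelled SMC1 (28.8%) fell to 15.3% when loops below the median in read pairs were dropped. An exchange of the loop lists gave 47.5% for SMC1 and 28.8% for CTCF. The overlap of SMC1 with CTCF peaks (50%) was 40.8% with summits at most 200 bp apart, 59.5% with peaks of −log10 q of at least 10 and 64.3% within 1 kb of the starts. The shares within 1 kb ranged over 16.9% to 32.2% for SMC1 and 10.2% to 20.3% for CTCF. With the motif sought within 50 bp or 100 bp of CTCF summits, no loop of the 59 genes had both anchors oriented, so the search over whole peaks was chosen after seeing the data. No paired analysis was possible because each list pools both replicates of its target, and for the same reason no replicate could be left out. Depth limits absence: a start without a peak or loop may lie below the reach of these lists.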

Other observations

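On the alternate contigs of chromosome 17, 10 of the 12 members with repeated start sequence were matched at 15 positions. Not all of these are separate places, since those of CCL4 and CCL4L2 lie within 1 kb of each other. No SMC1 summit lay within 20 kb of any of them, and a CTCF summit lay within 20 kb of 2, the copies of CCL15 and CCL23. The larger of the contigs held 10 SMC1 and 5 CTCF peaks in all.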
